A study of Mus musculus with 25 samples.

Results

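The 7 genes described here write, copy or remove methyl groups on DNA. They are the methyltransferases Dnmt1, Dnmt3a and Dnmt3b, the Dnmt1 cofactor Uhrf1, and the dioxygenases Tet1, Tet2 and Tet3. Members were the probe sets annotated to exactly 1 of these symbols. All 7 genes were measured, by 19 of the 45101 probe sets, and stand among 18193 genes in all. Where a gene had several sets, the one brightest on average across the 14 stages was used. Dnmt1 had 3 sets, Dnmt3a 5, Dnmt3b 2, Uhrf1 2, Tet1 4, Tet2 2 and Tet3 1.

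RNA came from whole livers of untreated C57/B6 mice of random-bred matings, with no genetic change named and no sex given. Each stage was 1 pool, of 12 livers at embryonic day 11.5 (E11.5), 9 at E12.5 and E13.5, 6 at E14.5 and E15.5, and 3 at each later stage. The 8 fetal pools ran from E11.5 to E18.5, and the 6 postnatal pools were taken on the day of birth (Day0), on days 3, 7, 14 and 21, and at 18 weeks (adult). The 25 arrays comprise 2 technical repeats at 11 stages and a single array at E18.5, at Day7 and at Day14.

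DNA methylation in mammals sits mostly on cytosines of CpG pairs. Dnmt1 restores it after replication, guided by Uhrf1, which binds half-methylated DNA, while Dnmt3a and Dnmt3b set new marks, and Tet1, Tet2 and Tet3 oxidise methylcytosine so that it can be lost or replaced. The fetal liver is both a growing epithelium and the main site of blood formation before birth, so that dividing blood precursors and hepatocyte precursors share the organ.

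Promoter sites of the maintenance pair are shown because Dnmt1 and Uhrf1 had the most similar courses among the members. RefSeq starts on assembly GRCm38.p6 gave 12 windows for the 7 genes, each from 250 bases before to 50 after a start. They were searched on both strands for 4 forms of the site bound by E2F, the factors of S-phase entry: TTTCGCGC, TTTGGCGC, TTTCCCGC and TTTGCCGC. The search was chosen after the levels had been seen. A window of Dnmt1 (1 of 3) and a window of Uhrf1 (1 of 2) held a match. None of the 7 windows of Dnmt3a, Dnmt3b, Tet1, Tet2 and Tet3 held one, which says only that these letters are not in those windows. The 30 bases around the match before each start follow, with the match in capitals, from chr9:20952824-20952853 on the minus strand (Dnmt1) and chr17:56304117-56304146 on the plus strand (Uhrf1).
Dnmt1: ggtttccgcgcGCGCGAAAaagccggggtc
Uhrf1: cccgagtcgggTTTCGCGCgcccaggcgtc

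The capitals in the Dnmt1 site are TTTCGCGC read on the opposite strand, 219 to 212 bases before the start. The same window held TTTGGCGC 34 to 41 bases after the start, outside the stretch printed. In the Uhrf1 window TTTCGCGC lay 185 to 178 bases before the start, on the gene's own strand. Both sites lie downstream of other listed starts of their gene, 2 for Dnmt1 and 1 for Uhrf1, and the windows of those starts held no match. Among 32851 promoter windows of the same length, 0.323% held TTTCGCGC, 0.514% TTTGGCGC, 1.07% TTTCCCGC and 0.441% TTTGCCGC, and 2.27% held any of them. Both windows had 33 CpG pairs, against a median of 7 over all windows; some member windows without a match had more, with 57 for Tet2 and 47 for a window of Dnmt3a. A match describes letters, and binding was not measured.

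Array-wide facts set the limits of all values. Medians of the arrays lay between 5.41 and 5.53 on the log2 scale of intensity. A gene was counted as dim at a stage when it was less than 1 log2 unit above the median of all probe sets there, a threshold between 6.42 and 6.53; 43.6% of genes were dim at every stage. Dnmt1 was above this threshold at 13 stages, Uhrf1 at 11, Dnmt3a at 13, Dnmt3b at 6 and Tet3 at 13, while Tet1 and Tet2 were dim at all 14. The labelled organ was borne out by its markers: all 9 measured hepatocyte genes of 10 listed were above the threshold, and the mean of that list was 11.0 to 13.5 in fetal and 12.6 to 13.6 in postnatal pools. Array 1 was on average the brighter repeat at 10 of the 11 stages with 2 arrays. Levels are compared between stages for a given probe set, and levels of different genes are not compared. Mean intensities of the arrays ran from 141 to 210, so a like scaling of the stages was assumed and not shown.

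**Figure D1:**
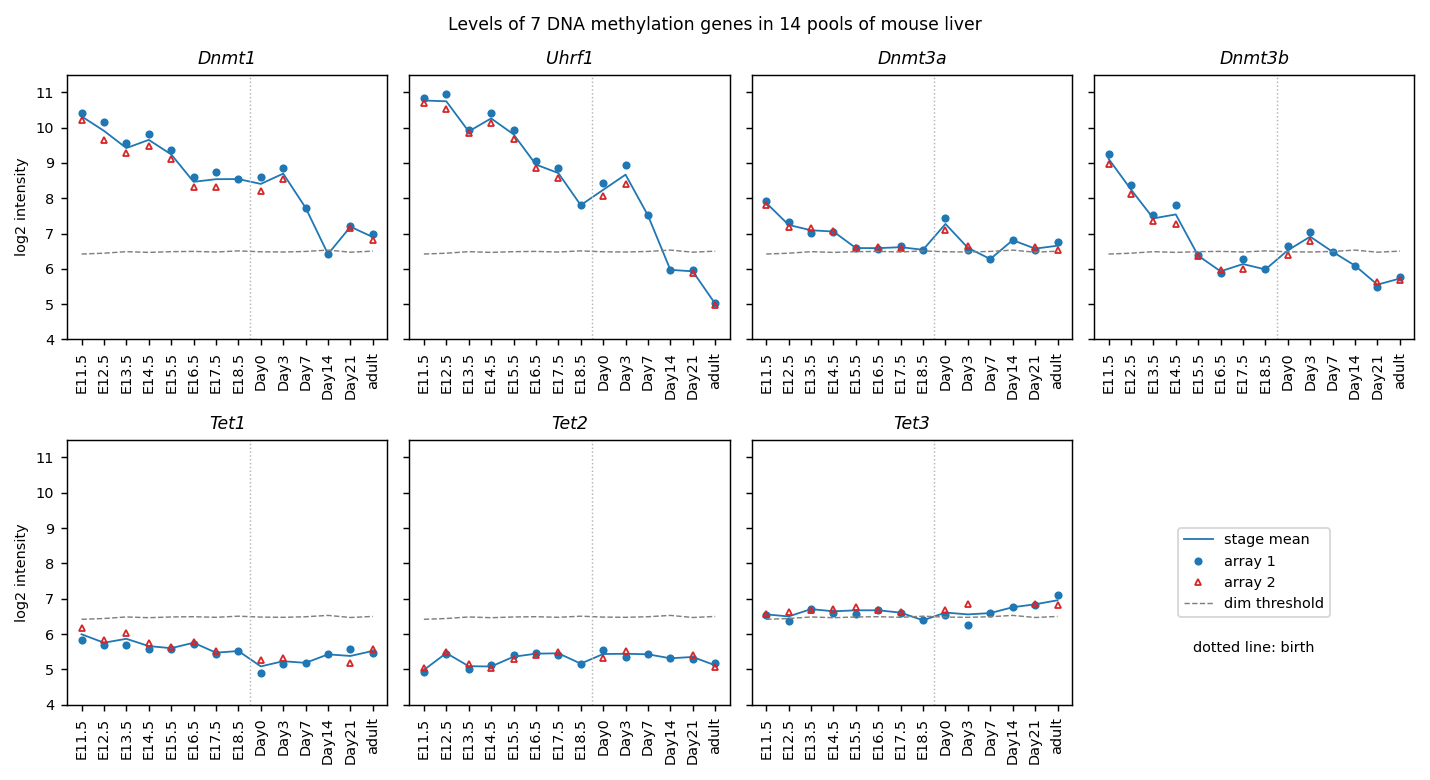
Log2 intensity (vertical axis) of the 7 genes at 14 stages (horizontal axis), with array 1 as filled circles, array 2 as open triangles, the stage mean as a line, the dim threshold as a dashed line and birth as a dotted line. Dnmt1, Uhrf1 and Dnmt3b start high at E11.5 and end near or below the threshold, while Tet1 and Tet2 stay below it throughout.

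Dnmt1, the maintenance methyltransferase, was highest at the start of the series and lowest in the weeks after birth. Its log2 level was 10.32 at E11.5, 9.91 at E12.5, 9.42 at E13.5, 9.65 at E14.5, 9.24 at E15.5, 8.46 at E16.5, and 8.54 at both E17.5 and E18.5. It was 8.40 at Day0, 8.70 at Day3, 7.73 at Day7, 6.42 at Day14, 7.19 at Day21 and 6.90 in the adult. The span from E11.5 to Day14, where the gene was dim, was 3.90 log2 units. The standard deviation (SD) of technical repeats was 0.23, which leaves out the spread between animals. The 5 pools from E11.5 to E15.5 stood above every postnatal pool, and those from E16.5 to E18.5 lay below Day3, so the classes overlapped. In order of level, 4 of 13 neighbouring pairs of stages differed by more than 2 standard errors (SE) of technical repeats.

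Uhrf1, which brings Dnmt1 to newly replicated DNA, had the widest span of the 7. Its log2 level was 10.77 at E11.5, 10.74 at E12.5, 9.89 at E13.5, 10.26 at E14.5, 9.81 at E15.5, 8.95 at E16.5, 8.71 at E17.5 and 7.80 at E18.5. After birth it was 8.24 at Day0, 8.67 at Day3, 7.51 at Day7, 5.97 at Day14, 5.93 at Day21 and 5.01 in the adult. The range was 5.75 log2 units, with a repeat SD of 0.20, and the last 3 stages were dim, so that the lower end is near background. The level at E18.5 lay below those of Day0 and Day3, and the other 7 fetal pools stood above all postnatal ones. In order of level, 5 of 13 neighbouring pairs differed by more than 2 SE. The skeletal muscle list, a check for tissue around the liver, was 7.34 in the E18.5 pool and 5.16 to 5.68 at all other stages. With and without that pool, Uhrf1 was called between fetal and postnatal pools, over the fetal course and over all stages.

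Both maintenance genes were higher in fetal than in postnatal pools. A call needed a limma p below 0.05 after Benjamini-Hochberg adjustment across the 18193 genes, and a difference of 1 log2 unit or more. The fetal minus postnatal difference was 1.70 ± 0.40 log2 units for Dnmt1 (SE, 8 and 6 pools, 3.26-fold, adjusted p = 0.00914). It was 2.73 ± 0.63 for Uhrf1 (6.63-fold, adjusted p = 0.00855), and 2.99 without the E18.5 pool. These were the 2 members of 7 called higher, where 4.50% of all genes were called higher and 5.01% lower (9.51% together). None of the 7 members had classes without overlap, against 4.09% of all genes. Stages stood in as replicates of a class, so the spread includes development. In a whole organ, fewer cells of a type and less RNA per cell cannot be told apart.

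Both genes also fell before birth. Over the 7 days from E11.5 to E18.5 the fitted slope came to -1.88 ± 0.24 for Dnmt1 (SE, 8 pools, limma adjusted p = 0.00165) and to -2.85 ± 0.33 for Uhrf1 (adjusted p = 0.00142). Without E18.5 the Uhrf1 value was -2.46. With Dnmt3a and Dnmt3b, given with their own values, 4 of 7 members fell in this comparison, where 12.0% of all genes fell and 4.40% rose. With arrays set to equal housekeeping levels, the median of all genes moved from 0.037 to 0.62 in the fetal course and from -0.015 to -0.30 in the fetal against postnatal difference. The calls over all genes then went from 800 rising and 2179 falling to 2800 and 815 in the fetal course, and quantile normalisation gave 951 and 1340. For fetal against postnatal pools the calls went from 819 higher and 912 lower to 520 and 1353. Dnmt1 and Uhrf1 kept direction and call in both comparisons under these and all other alternatives that measured them, with 1.42 to 2.49 and 2.20 to 3.08 for the fetal excess and -2.40 to -1.30 and -3.12 to -2.26 for the fetal course.

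After birth the sharpest drops of the pair came between Day3 and Day14. Steps between neighbouring stages were tested on all 25 arrays. Their errors therefore reflect repeat hybridisations of single pools, and a stage with 1 array was assumed to vary like the others. Uhrf1 fell by 1.15 ± 0.23 log2 units from Day3 to Day7 (SE, limma adjusted p = 0.00182), where 2.84% of genes fell. From Day7 to Day14 it fell by a further 1.54 ± 0.26 (adjusted p = 0.00162), and Dnmt1 fell by 1.31 ± 0.29 (adjusted p = 0.00855), where 4.56% of genes fell. Day7 and Day14 are stages with 1 array, and the calls from Day7 to Day14 were lost when the mean of all probe sets was used (-0.90 for Uhrf1 and -1.15 for Dnmt1). With array 1 of Day3 left out, the Uhrf1 step from Day3 to Day7 was -0.89, under the 1 log2 unit of a call. Dnmt1 stood 0.77 ± 0.25 higher at Day21 than at Day14 (adjusted p = 0.0516), which missed the threshold. Of the 91 steps of the 7 members 4 were called, against 2.88% of the steps of all genes.

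The slope over the 6 postnatal pools gave no call for any of the 18193 genes (0%). At an unadjusted p under 0.05 there were 2540 genes (14.0%). The fitted change from Day0 to the adult was -3.89 ± 0.79 for Uhrf1 (SE, 6 pools, limma unadjusted p = 0.00286, adjusted p = 0.178). It was -1.97 ± 0.72 for Dnmt1 (adjusted p = 0.311). A spline over all 14 pools called both, with a fitted range of 5.94 for Uhrf1 (adjusted p = 4.01e-06) and 3.66 for Dnmt1 (adjusted p = 6.03e-05), both peaking at E11.5. It called 4 members of 7 against 29.8% of all genes.

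The other probe sets of the pair fell over the same period. Names ending in _a_at, _s_at or _x_at mark sets that can match more than 1 transcript. The Dnmt1 set used is an _a_at set, and its other sets are _x_at sets. All 3 sets of Dnmt1 were called in fetal against postnatal pools, at 1.70, 3.15 and 2.62 log2 units, and in the fetal course, at -1.88, -2.38 and -2.95, in fits over 34945 sets. They differed at single stages. From E17.5 to E18.5 the brightest set differed by 0.0037, the next by -0.99 (adjusted p = 0.0655) and the dimmest by -2.11 (adjusted p = 0.00172). At Day14 the brightest set stood at 6.42 and the others at 4.10 and 4.12, all below the dim threshold of 6.53. Both sets of Uhrf1 were called, at 2.73 and 1.66 for the fetal excess and -2.85 and -2.28 for the fetal course. They too differed at single stages. From E11.5 to E12.5 the Uhrf1 set used changed by -0.022 and the other by -1.03. From Day7 to Day14 the set used changed by -1.54 and the other by -0.26. That other set was already dim at Day7 (5.84) and at Day14 (5.58), where little room was left for a fall.

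**Figure D2:**
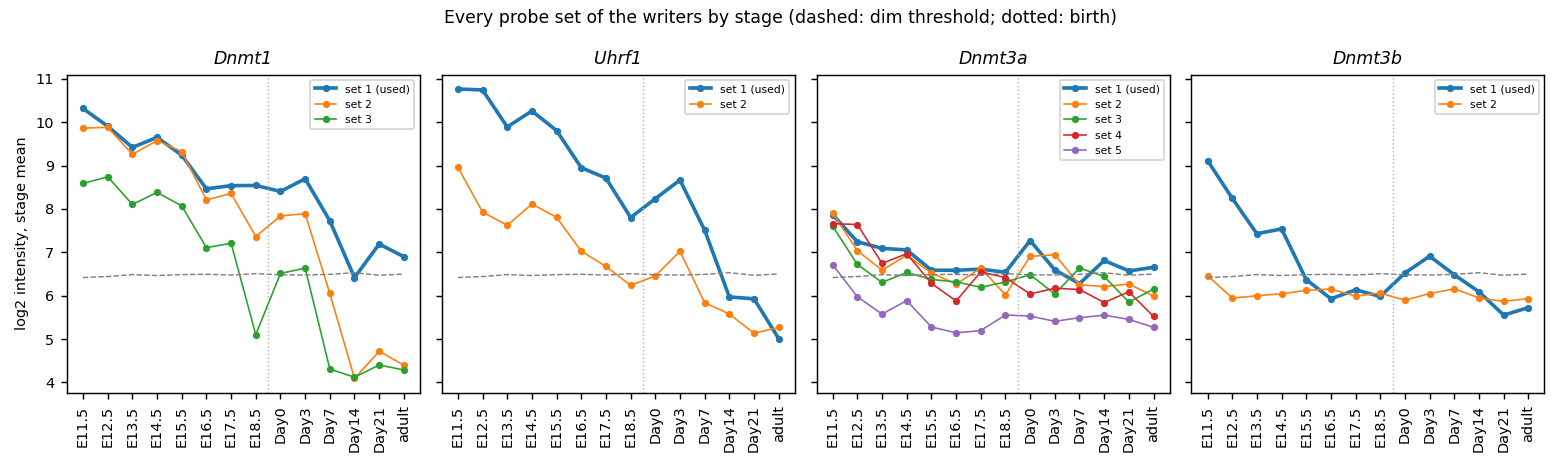
Stage means of log2 intensity (vertical axis) of every probe set of Dnmt1, Uhrf1, Dnmt3a and Dnmt3b by stage (horizontal axis), with the set used as a thick line, the dim threshold dashed and birth dotted. The other sets of Dnmt1 drop at E18.5, where the set used does not, and the second set of Dnmt3b stays flat below the threshold at all but the first stage.

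Dnmt3b, a methyltransferase of new marks that is abundant in the early embryo, lost most of its level during the first days of the series. It was 9.12 at E11.5, 8.25 at E12.5, 7.43 at E13.5, 7.54 at E14.5, 6.37 at E15.5, 5.93 at E16.5, 6.14 at E17.5 and 5.98 at E18.5 on the log2 scale. Its postnatal levels were 6.52 at Day0, 6.91 at Day3, 6.48 at Day7, 6.09 at Day14, 5.55 at Day21 and 5.73 in the adult. It was above the dim threshold from E11.5 to E14.5 and again at Day0 and Day3. The first 4 fetal pools stood above all postnatal pools, and the other 4 lay below Day0. The range was 3.56 log2 units, with its lower end dim, and the repeat SD was 0.17. In order of level, 4 of 13 neighbouring stages differed by more than 2 SE.

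In the fetal course Dnmt3b fell by 3.18 ± 0.41 log2 units (SE, 8 pools, limma adjusted p = 0.00166), and the call held in every alternative that measured it, at -3.66 to -1.68. Its largest step was from E14.5 to E15.5, a fall of 1.17 ± 0.16 (adjusted p = 0.000206), where 1.17% of genes fell. At equal housekeeping levels (-0.90) and for the mean of its probe sets (-0.55) this step was not called. Array 1 stood at 7.80 at E14.5 and 6.39 at E15.5. Array 2 stood at 7.28 and 6.36, which is less than 1 log2 unit apart. The fetal minus postnatal difference was 0.88 ± 0.49 (adjusted p = 0.225) and was not called. The spline gave a range of 3.64 (adjusted p = 1.30e-05). The levels from Day0 to Day3 stood above those of E16.5 to E18.5, and the single steps from E18.5 to Day0 (0.54 ± 0.20, adjusted p = 0.0565) and from Day0 to Day3 (0.39 ± 0.16, adjusted p = 0.192) missed the threshold. The second probe set of Dnmt3b spanned 0.60 log2 units over all stages, changed by -0.17 in the fetal course and correlated with the first at r = 0.548 over 14 stages, so the result rests on 1 set.

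Dnmt3a, the methyltransferase of new marks that persists in adult tissues, varied less and close to the threshold. Its log2 level was 7.87 at E11.5, 7.24 at E12.5, 7.09 at E13.5, 7.06 at E14.5, 6.59 at E15.5, 6.59 at E16.5, 6.61 at E17.5 and 6.54 at E18.5. After birth it was 7.27 at Day0, 6.59 at Day3, 6.28 at Day7, 6.81 at Day14, 6.57 at Day21 and 6.65 in the adult. The range was 1.59 log2 units down to a dim level at Day7, with a repeat SD of 0.10. E11.5 alone stood above all postnatal pools, and the E11.5 level over the next highest, Day0, was the 1 gap of 13 in the order of levels that exceeded 2 SE. It fell by 1.20 ± 0.21 log2 units in the fetal course (SE, 8 pools, limma adjusted p = 0.00476). That call was lost without the E11.5 pool (-0.88), at equal housekeeping levels (-0.62) and after quantile normalisation (-0.91). The fetal minus postnatal difference was 0.25 ± 0.21 (adjusted p = 0.432).

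The probe sets of Dnmt3a did not share 1 course around birth. In the set used, from E18.5 to Day0 the level differed by 0.73 ± 0.13 log2 units (limma adjusted p = 0.00103) and from Day0 to Day3 by -0.68 ± 0.11 (adjusted p = 0.000598). Both passed the adjusted p and missed the 1 log2 unit of a call. In all, 17 of 91 member steps passed the adjusted p, of which 4 were called, against 12.3% of the steps of all genes that passed it. The 5 probe sets of Dnmt3a differed by -0.38 to 0.89 from E18.5 to Day0, 3 of them upward, and by -0.68 to 0.13 from Day0 to Day3, again with both signs. The Day0 level of the set used, 7.27, was close to that of E12.5 (7.24), and E18.5 is the pool with 1 array and the skeletal muscle signal. In the fetal course 4 of the 5 sets were called, at -1.45 to -1.16, and the other stood at -0.98 (adjusted p = 0.0553). None of the 5 was called between fetal and postnatal pools, where they differed by 0.21 to 0.80.

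**Figure D3:**
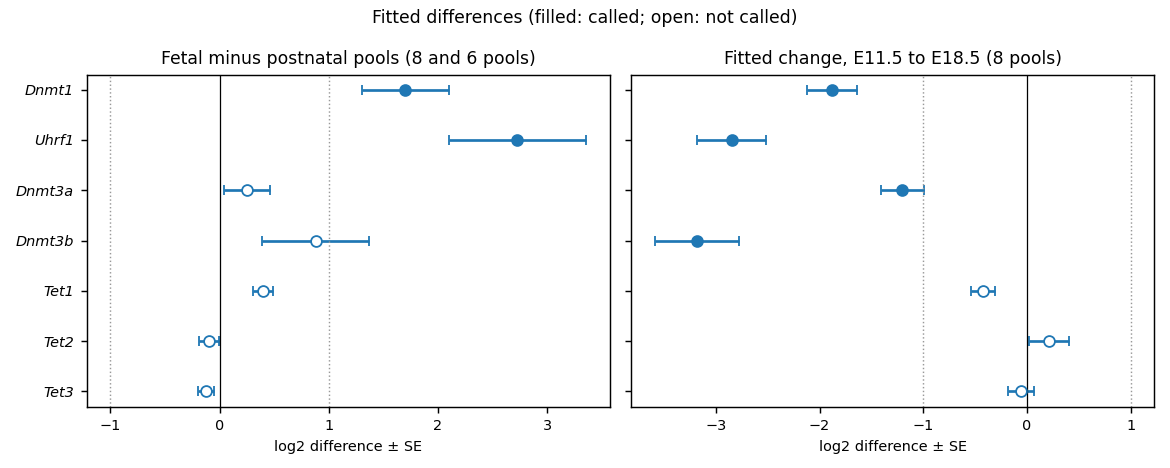
Fitted log2 difference (horizontal axis, point ± SE) of each gene (vertical axis) between 8 fetal and 6 postnatal pools (left) and over the fetal course from E11.5 to E18.5 (right), with called genes filled and others open; dotted lines mark 1 log2 unit. Dnmt1 and Uhrf1 are filled on both sides, Dnmt3a and Dnmt3b on the right side, and the Tet genes on neither.

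The erasers showed no called change in any comparison. Tet1, the founding member of the family, was dim at all stages, with fetal log2 levels of 6.00, 5.76, 5.87, 5.66, 5.60, 5.76, 5.48 and 5.52 from E11.5 to E18.5. From Day0 to the adult it was 5.09, 5.23, 5.19, 5.43, 5.38 and 5.53. The 6 pools of E11.5 to E16.5 stood above all postnatal pools. The difference of 0.40 ± 0.092 (SE, limma adjusted p = 0.00913) passed the adjusted p, as 20.3% of all genes did, and stayed under 1 log2 unit. Of its 4 probe sets 3 were higher in fetal pools and 1 lower, between -0.19 and 0.40. In the fetal course the set used fitted at -0.43 ± 0.12 (adjusted p = 0.0283), under 1 log2 unit; 29.6% of all genes passed the adjusted p there. At equal housekeeping levels the sign turned (0.16). Over the 4 probe sets of Tet1 the fetal course ran from -0.89 (limma adjusted p = 0.00809) to 0.37, and 0 were called.

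Tet2, known for its loss in blood cancers, was also dim throughout. Its log2 level was 4.99 at E11.5 and 5.46 at E12.5, and 5.08 to 5.46 from E13.5 to E18.5. The postnatal pools lay between 5.12 in the adult and 5.44 at Day0 and Day3. Its range of 0.48 compares with a repeat SD of 0.09. The fetal minus postnatal difference was -0.093 ± 0.092 (SE, limma adjusted p = 0.508), and its 2 probe sets differed in sign (-0.093 and 0.14). Of its 13 steps 2 passed the adjusted p, 1 upward and 1 downward, and neither reached 1 log2 unit.

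Tet3, the dioxygenase of the fertilised egg and of many adult tissues, lay just over the threshold at 13 stages, with E18.5 the exception. Its log2 level was 6.56 at E11.5, 6.50 at E12.5, 6.71 at E13.5, 6.65 at E14.5, 6.67 at E15.5, 6.67 at E16.5, 6.61 at E17.5 and 6.39 at E18.5. It was 6.61 at Day0, 6.56 at Day3, 6.60 at Day7, 6.76 at Day14, 6.84 at Day21 and 6.96 in the adult, where it was highest of all stages. The range was 0.57, with a repeat SD of 0.16, and the difference of fetal from postnatal pools was -0.13 ± 0.074 (SE, limma adjusted p = 0.253). The spline gave a range of 0.46 (adjusted p = 0.00719), which passed the adjusted p, as 47.0% of all genes did, and missed the 1 log2 unit; at equal housekeeping levels the range was 1.33 and called. The fitted change from Day0 to the adult was 0.41 ± 0.15 (adjusted p = 0.312). For each of the 3 Tet genes, 0 of 13 neighbouring stages in order of level differed by more than 2 SE.

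Genes of DNA replication moved with the maintenance pair. The mean of 20 replication genes, all measured, was 8.70 to 9.77 in fetal pools and 6.32 to 8.63 in postnatal pools; 16 of the 20 were called higher in fetal pools, and 10 fell in the fetal course. Over the 14 stage means, which share pools and arrays, that list correlated with Uhrf1 at r = 0.978, with Dnmt1 at 0.930, with Dnmt3b at 0.693 and with Dnmt3a at 0.435. The mitosis list, with 11 of 12 genes measured and all 11 higher in fetal pools, lay at 8.81 to 9.70 and 5.43 to 8.69, and correlated at 0.949 with Uhrf1 and 0.896 with Dnmt1. Of its 11 genes 2 fell in the fetal course.

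Markers of erythroid, of stem and progenitor, and of megakaryocyte cells also correlated positively with the pair over all stages. The other blood cell lists showed no such correlation. For Dnmt1 and Uhrf1, r was 0.063 and 0.114 for granulocyte genes, and -0.731 and -0.682 for macrophage genes. It was -0.288 and -0.230 for B lymphocyte genes, and -0.350 and -0.264 for T and NK lymphocyte genes. Of 12 erythroid genes 11 were measured, none of them dim, and 10 were higher in fetal pools, with a list mean of 10.1 to 11.3 before birth and 6.42 to 9.66 after it. Before birth, where Dnmt1 and Uhrf1 fell over the fetal course, 3 erythroid genes fell and 1 rose, the median was 0.14, and the list mean went from 10.7 at E11.5 to 11.3 at E14.5 and 10.1 at E18.5. That list correlated at 0.947 with Uhrf1 and 0.931 with Dnmt1, and at 0.608 with Dnmt3b and 0.430 with Dnmt3a. The 7 stem and progenitor genes, at 6.86 to 7.62 before and 6.28 to 7.32 after birth, correlated at 0.935 with Dnmt1, 0.930 with Uhrf1, 0.759 with Dnmt3b and 0.648 with Dnmt3a; 1 of them was higher in fetal pools, and 3 fell and 1 rose in the fetal course. The megakaryocyte list, with 5 of 6 genes measured, lay at 8.23 to 9.07 and 6.05 to 9.00 and correlated at 0.870 with Dnmt1 and 0.874 with Uhrf1. The hepatocyte list ran the other way, at -0.724 with Uhrf1 and -0.758 with Dnmt1. The mean of 8 measured housekeeping genes of 12 was 10.2 to 10.8 in fetal and 9.97 to 10.4 in postnatal pools, and correlated at 0.918 with Dnmt3b, 0.840 with Dnmt1, 0.822 with Uhrf1 and 0.814 with Dnmt3a. The part of cell division, of blood cells and of these housekeeping levels in the results for the 4 writers was not tested.

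**Figure D4:**
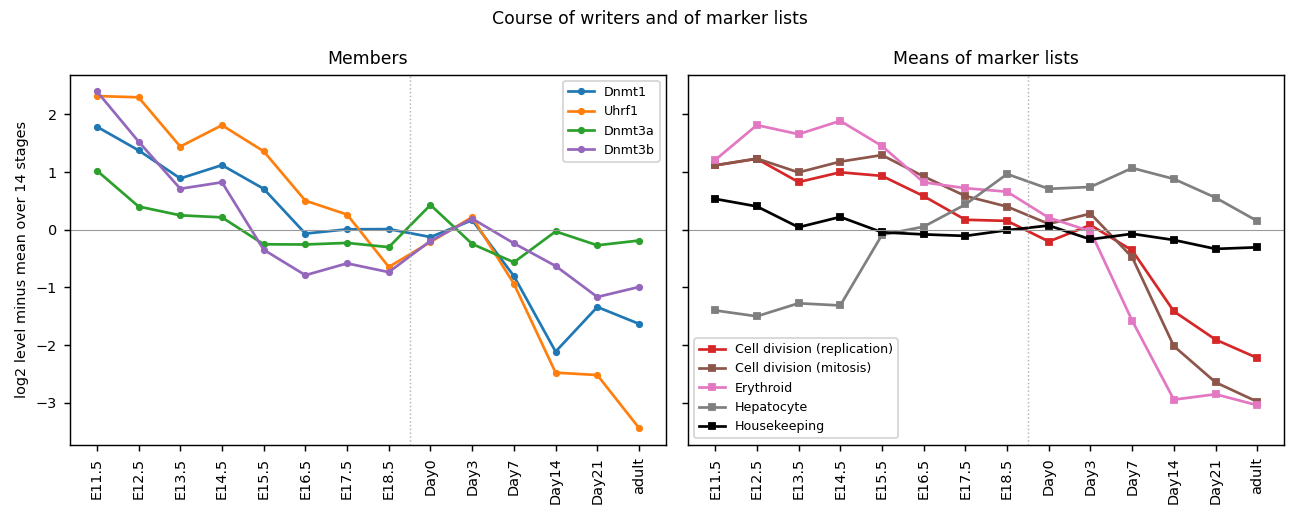
Log2 level minus its mean over the 14 stages (vertical axis) by stage (horizontal axis), for the 4 writers (left) and for the means of 5 marker lists (right), with birth as a dotted line. Dnmt1 and Uhrf1 drop steeply from Day3 to Day14, as do the replication, mitosis and erythroid lists, whereas Dnmt3b drops most before E16.5.

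Among the members themselves Dnmt1 and Uhrf1 were most alike, at r = 0.966 over 14 stages. Dnmt3a and Dnmt3b followed at 0.822, Dnmt1 and Dnmt3b at 0.811 and Dnmt3b and Uhrf1 at 0.783. Tet3 ran against Dnmt1 (-0.599) and Uhrf1 (-0.608) within its narrow range. On the array, Dnmt1 and Uhrf1 were each higher on array 1 at 11 of 11 stages and Dnmt3b at 9, so that repeats share an offset; from array 1 alone the fetal excess was 1.77 for Dnmt1 and 2.75 for Uhrf1, and with array 1 left out wherever a second array existed it was 1.64 and 2.71.

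The genes nearest to each member over the 14 stages were taken among those not dim. For Uhrf1 they were Rfwd3 (r = 0.992), a ubiquitin ligase of DNA repair, Dut (0.989), which clears dUTP, and Nasp (0.988), a histone chaperone. For Dnmt1 they were the corepressor Ctbp1 (0.994), Lsm14a (0.991), which acts on messenger RNA, and Srrt (0.989). For Dnmt3b they were Spats2 (0.981), Ccdc71 (0.976) and Exosc1 (0.975), a subunit of the RNA exosome, and for Dnmt3a the LIM homeobox factor Lhx2 (0.948), Yrdc (0.937) and Mmgt2 (0.937). The likeness of Uhrf1 to Nasp fell to 0.449 and to Dut to 0.694 without the _s_at, _x_at and _a_at sets, which can match more than 1 transcript.

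The erasers had less similar neighbours. Tet1 was nearest to Ccdc137 (0.896), to Uhrf2 (0.895), the paralogue of Uhrf1, and to 2810408I11Rik (0.891). The likeness to Uhrf2 turned to -0.59, and that to 2810408I11Rik to -0.54, without such sets, since the Tet1 set used is 1 of them. Tet2 was nearest to Herc4 (0.799), Calcrl (0.792) and 2610005L07Rik (0.721). Tet3 was nearest to 1810021B22Rik (0.927), the mitochondrial deacylase Sirt5 (0.914) and Lrrc28 (0.908).

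Some genes of proteins that work with the writers were also higher in fetal pools. Of 15 listed partners, all measured, 6 were higher in fetal pools and 0 lower, where 4.50% of all genes were higher, with a list median of 0.45 against -0.015 over all genes. They were Cdca7 (2.18 ± 0.46), a cofactor of the remodeller Hells, the Polycomb methyltransferase Ezh2 (2.11 ± 0.43), DNA ligase Lig1 (1.80 ± 0.36), the sliding clamp Pcna (1.77 ± 0.43), the demethylase Kdm1a (1.32 ± 0.39) and Usp7 (1.28 ± 0.28), which stabilises Uhrf1 and Dnmt1. In the fetal course 6 members of the list fell and 0 rose, where 12.0% of all genes fell. Cdca7 fell most (-2.75 ± 0.37), followed by Kdm1a (-2.23 ± 0.28), the corepressor Trim28 (-1.63 ± 0.34), Lig1 (-1.43 ± 0.18), Ezh2 (-1.28 ± 0.21) and the histone methyltransferase Ehmt1. Pcna, at -0.44 ± 0.24, was not called in the fetal course. Uhrf2 differed by 0.41 ± 0.088 between fetal and postnatal pools and was not called.

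Of 10 listed readers of the mark 8 were measured. Of these 1 was higher in fetal pools, where 4.50% of all genes were, and 2 fell in the fetal course, where 12.0% of all genes did. The glycosylase Mbd4 was higher in fetal pools (1.04 ± 0.26), a call lost in 9 of 27 alternatives, at values down to 0.52. Its fetal mean of 5.88 and postnatal mean of 4.84 both lay under the dim threshold, although it was not dim at every stage. Mbd4 fell in the fetal course (-1.64 ± 0.25), as did Zbtb33, known as Kaiso (-1.54 ± 0.40).

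Genes that clear oxidised bases or work with the Tet proteins gave 0 calls in limma between fetal and postnatal pools among 15 measured of 19. Of all genes 9.51% were called there. At an unadjusted p under 0.05 there were 10 of the 15. The adjusted p was passed by 6, as by 20.3% of all genes, and these 6 missed the 1 log2 unit. When 1 pool was left out, 0 to 2 were called. The 2 came without Day3, and 1 was called without E11.5, Day0 or Day14. Over the fetal course 1 of the 15 rose and 2 fell, near the shares of all genes (4.40% and 12.0%). Idh1, which makes the ketoglutarate that Tet enzymes need, rose by 1.64 ± 0.35. The repair scaffold Xrcc1 (-1.59 ± 0.28) and the endonuclease Apex1 (-1.08 ± 0.14) fell.

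Enzymes that supply or use the methyl donor were called in both directions. Of 18 measured genes of 21 listed, 8 were lower and 1 was higher in fetal pools, and 7 rose and 2 fell in the fetal course. Of all genes 5.01% were lower and 4.50% higher, and 4.40% rose and 12.0% fell. The list median was -1.15 against -0.015 over all genes for fetal against postnatal pools, and 0.38 against 0.037 in the fetal course. Mat1a, which makes S-adenosylmethionine in liver, stood 5.39 ± 1.06 lower in fetal pools and rose by 7.34 ± 0.90 log2 units in the fetal course. Gnmt, which consumes the donor in hepatocytes, stood at -4.02 ± 0.83 and 5.39 ± 0.66. Ahcy, which clears the product of every methyl transfer and so serves the Dnmt proteins too, stood at -1.68 ± 0.36 and, not called in the fetal course, 0.57 ± 0.59. Mthfd2, a mitochondrial folate enzyme of growing cells, ran as the maintenance pair did, 1.66 ± 0.29 higher in fetal pools and -1.82 ± 0.36 in the fetal course.

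**Figure D5:**
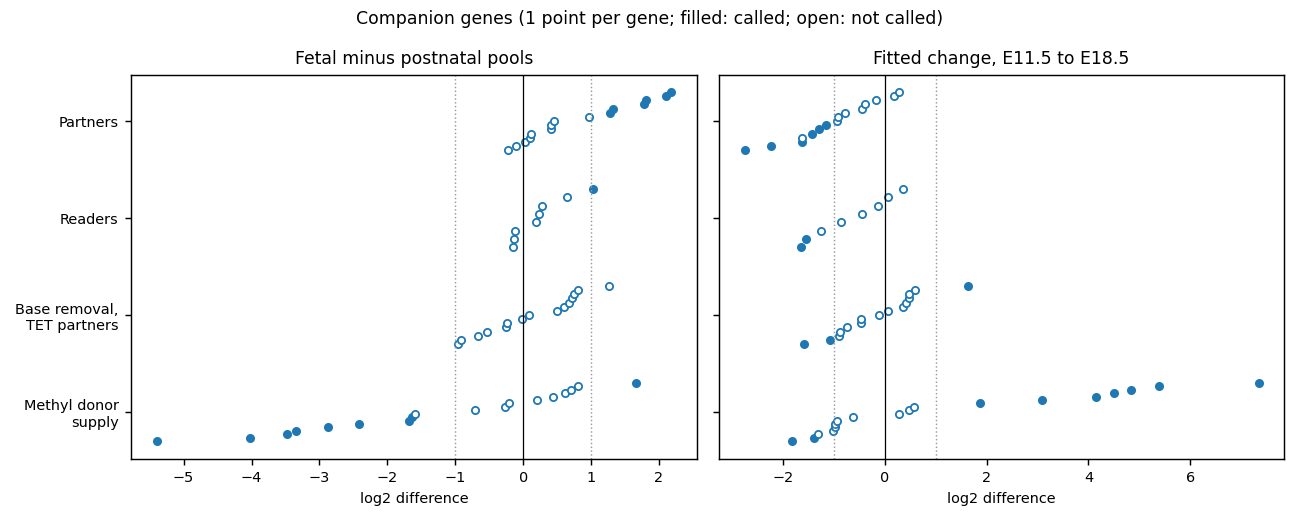
Fitted log2 difference (horizontal axis) of each measured gene of 4 companion lists (vertical axis), between fetal and postnatal pools (left) and over the fetal course (right); filled points were called and open points were not, and dotted lines mark 1 log2 unit. Partners reach 2.18 to the right in the left plot, and the donor genes spread from -5.39 on the left to 7.34 on the right.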

How the data were processed

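Biotin-labelled total RNA of pooled livers was hybridised to whole-genome oligonucleotide arrays. The authors deposited linear intensities between 12.6 and 25175. RMA was used, per the submitters' processing notes; no version is given in the sources used here. The design assumed log2 values, so intensities were first converted to log2. Of 45101 probe sets 34958 carried 1 gene symbol, 932 several and 9211 none. Repeat arrays, which correlated across genes at r = 0.986 or more, were averaged, so n counts pools; nothing measures single animals. The number of arrays limits the precision.

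Fits used limma 3.58.1 (lmFit, eBayes without trend) in R 4.3.3 on all 18193 genes: fetal against postnatal means, a slope per embryonic day, a slope per log2(day + 1) after birth, a natural spline with 3 degrees of freedom, and steps between neighbouring stages. P-values were adjusted over all genes (Benjamini-Hochberg), and calls also needed 1 log2 unit. The fits were tested on simulated data. The members and lists were chosen with earlier results of these data known. The genes named are the members, the 3 nearest genes of each and, per companion list, the largest called change in each direction; the smallest change not called is not printed. Other companion genes were named after their values were seen. Alternatives covered scaling, probe sets, dim genes, the variance model, repeats, stage boundaries, time axes and left-out pools; those on single probe sets and on stages with 1 array were added after the data were seen. Promoter windows are RefSeq's.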

Additional observations from a re-analysis of the deposited data

How the results depend on the processing

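Calls of Dnmt1 and Uhrf1 in fetal against postnatal pools and in the fetal course, and of Dnmt3b in the fetal course, held in all alternatives that measured them. Leaving out the _s_at, _x_at and _a_at sets removed Dnmt1 and Dnmt3b. Then 1 member in place of 2 was called in fetal against postnatal pools, and 2 in place of 4 in the fetal course. The spline called 2 in place of 4, and 2 in place of 4 steps were called. Without the 1 log2 unit threshold 17 member steps passed. At equal housekeeping levels the spline called 10651 genes in place of 5414. In the postnatal course quantile normalisation called 3 genes and stage order as time 36, against 0.

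Leaving out each pool in turn gave 1415 to 2039 genes called in fetal against postnatal pools (main 1731) with 2 members each time, and 2521 to 3058 in the fetal course with 3 or 4 members. Dnmt3a without E11.5 was also lost in the spline (0.70), as at equal housekeeping levels (0.54) and after quantile normalisation (0.85).

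Signs turned for values that had not been called. In fetal against postnatal pools these were Dnmt3a at equal housekeeping levels (-0.032), Tet1 without those sets (-0.19) and Tet2 as the mean of its sets (0.022). In the fetal course they were Tet1 at equal housekeeping levels (0.16) and without those sets (0.37), Tet2 as the mean of sets (-0.029), and Tet3 at equal housekeeping levels (0.52), after quantile normalisation (0.056) and without E18.5, the stage with 1 array (0.12), with -0.13 as the other end over left-out pools. After birth they were Dnmt3a without Day0 (0.23, the other end over left-out pools being -0.95) and Tet2 at equal housekeeping levels (0.056). The likeness of Tet1 to Uhrf2 turned to -0.59 and to 2810408I11Rik to -0.54 without those sets.

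Repeat numbers were not taken to pair arrays across stages, since nothing in the labels ties them and the differences between repeats correlated over 0.1 for 38 of 55 pairs of stages, not all (-0.57 to 0.73, median 0.40). These correlations are mostly positive, so repeats share part of their offset. With the repeat number as a replicate block, the fetal excess was 1.72 for Dnmt1 and 2.77 for Uhrf1, and 6 member steps were called in place of 4, the 4 among them. The 2 repeat arrays give no test of a step when 1 of them is left out. Tet1 and Tet2 lie under the dim threshold, where signal over background limits what a difference can show.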
